A study of Mus musculus with 8 samples.

Results

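The Hippo pathway members Yap1, Wwtr1, Tead1, Tead2, Tead3, Tead4, Lats1, Lats2, Amotl1 and Amotl2 were examined in m6A-RIP-seq peak lists of mouse vascular smooth muscle cells (VSMCs). A peak was assigned to a member when its summit, the base of highest signal, lay in an annotated exon of that gene. By this rule 96 of 42744 summits over 4 lists belonged to the 10 genes.

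In m6A-RIP-seq, fragments of RNA that carry N6-methyladenosine (m6A) are pulled down with an antibody (IP) and set against the RNA before pulldown (input). The series held 8 samples, with an IP and an input for replicates A and B of each of 2 short hairpin RNAs. All were primary VSMCs grown out of the descending aorta of C57BL/6J mice and transduced with lentivirus. shCTR carried a nontargeting hairpin and shMettl14 a hairpin against Mettl14, a subunit of the m6A methyltransferase complex. Only 1 hairpin against Mettl14 is represented, every cell carried a viral vector, and the labels do not say whether A and B came from separate animals or cultures, so the spread between them may be technical.

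The Hippo pathway is a kinase cascade that limits tissue growth. Upstream MST kinases activate the LATS kinases, which phosphorylate the coactivators YAP (Yap1) and TAZ (Wwtr1) and keep them out of the nucleus. Unphosphorylated YAP and TAZ bind the TEAD factors and switch on genes such as Ccn1 and Ccn2. Angiomotin family proteins hold YAP at cell junctions and scaffold LATS. In VSMCs, YAP and TAZ are known for their part in the switch between the contractile and the synthetic state. m6A is written mostly in the sequence DRACH (any base but C, then a purine, then AC, then any base but G, with the A of AC methylated), of which GGACT is the best known form.

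The 25-nt windows printed here lie under member peaks found in all 4 lists. Each is the transcript strand from 5′ to 3′, read from the GENCODE M21 transcripts and identical to the GRCm38 assembly, with the DRACH word at its centre in capitals. The windows of the Lats2 start codon, Yap1 and Tead4 hold further DRACH words, left in lower case. In the windows of the Lats2 start codon and 3′ UTR a further word, TAACA and TGACT, starts at the capital T of the GGACT. The first pair is shown because the words occupy matching places in paralogous exons, and the next pair because they flank the coding sequence of Lats2. The last 3 are the DRACH words nearest to the median position of the strongest summits in their region. They lie at 2 nt (Yap1), -7 nt (Tead4) and -32 nt (Amotl2) from it. Such words of Tead1, at -4 nt, and Amotl1, at -43 nt, are not printed.
Lats1, exon 5, chr10:7705785-7705809, plus strand: actttgtgatGGACTacattcctgg
Lats2, exon 5, chr14:57697149-57697173, minus strand: actttgtgatGGACTacataccagg
Lats2, start codon, chr14:57734211-57734235, minus strand: aaaggaaactGGACTaacaatgagg
Lats2, 3′ UTR, chr14:57691034-57691058, minus strand: taaattataaGGACTgactgtgaga
Yap1, 3′ UTR, chr9:7934137-7934161, minus strand: cacagactggGAACTgaatgctcta
Tead4, 3′ UTR, chr6:128228285-128228309, minus strand: ggaccttcagGGACAgtcccctgga
Amotl2, exon 3, chr9:102720315-102720339, plus strand: gagcacccgaGGACAgtcaggtgct

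Of the 10 members, 7 had peaks, and each of the 7 had at least 1 summit in every list. The same held for 16.1% of 21606 coding genes. Wwtr1, Tead2 and Tead3 had no summit in an exon or an intron of any list. Of the member summits, shCTR A and B held 23 and 17, and shMettl14 A and B held 33 and 23. The lists themselves held 11158, 8655, 13675 and 9256 summits, so that the members' share ran from 0.196% to 0.248%. The shMettl14 lists averaged 28 ± 7.07 member summits against 20 ± 4.24 in the shCTR lists (SD, n = 2), a ratio of 1.4 (two-sided exact permutation test, p = 0.667, the smallest p that 4 lists allow being 0.333). When an interval with several summits was counted once, the numbers were 17 and 14 in shCTR and 16 and 16 in shMettl14, a ratio of 1.03.

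Lists were compared by rank, since fold enrichments of separate lists rest on separate depths and backgrounds. The percentile of a summit is its place by fold enrichment within its own list, with 100 at the top. The IP pileup, which counts the fragments stacked on a summit, was recovered from the deposited values, and its median per list was 13 to 16 fragments, with a lowest value of 3. Peak intervals of the 4 lists that shared at least 1 bp were merged, which placed the member summits in 17 regions, 13 of them with a peak in all 4 lists. Of all 11361 regions, 43.4% had one. A drop in m6A of the same size at every site would leave ranks in place. Of 7 smooth muscle markers, Lmod1 had a peak in all 4 lists and Myh11 in 3, while Acta2, Tagln, Cnn1, Smtn and Myocd had none. Peaks say nothing of how much of a transcript was present. Markers of other cells also had peaks. Of 5 endothelial markers, Pecam1 and Cdh5 had one in all 4 lists and Kdr in 3, while Tie1 and Tek had none. Of 4 macrophage markers, only Csf1r had one, a single summit in shMettl14 B. Of 4 adventitial fibroblast markers, only Pdgfra had one, in all 4 lists. The paper also lists Pdgfra among the m6A-modified genes of these cells. Summed endothelial summits were 5 and 6 in shCTR and 9 and 5 in shMettl14, smooth muscle summits 5, 5, 9 and 4. In bulk samples fewer cells of a type and less RNA per cell cannot be told apart. The methods removed the adventitia and the endothelium before culture, and the part of other cells in the member values was not tested.

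**Figure D1:**
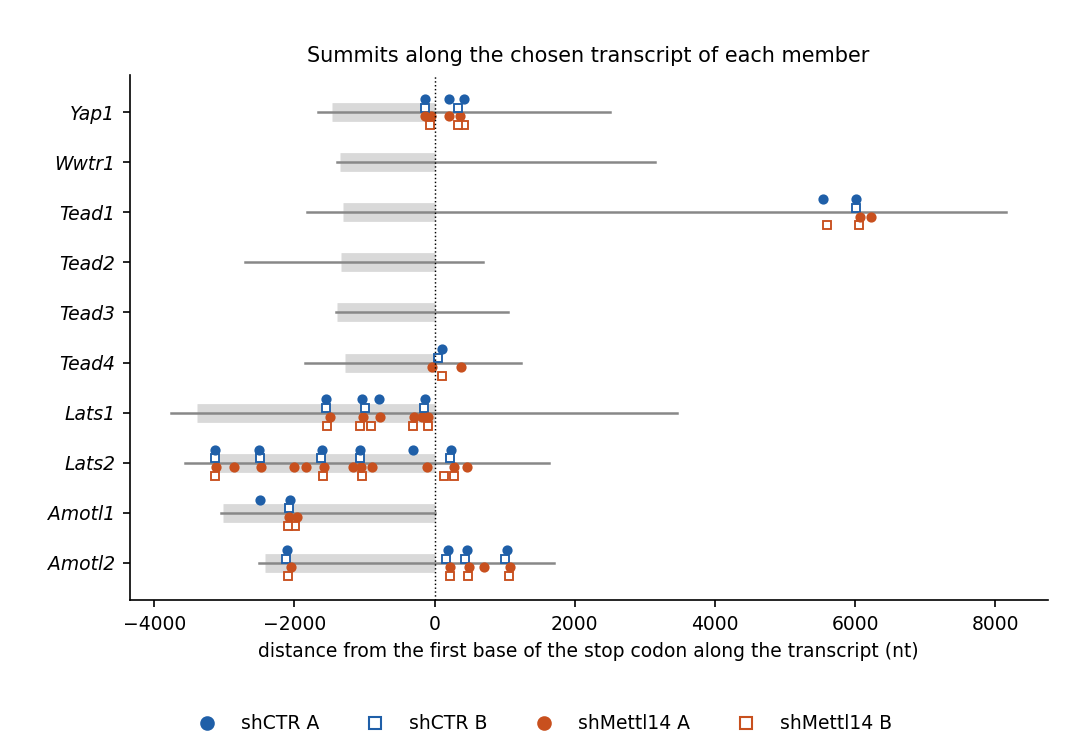
Position of every member summit along the chosen transcript of its gene, as distance from the first base of the stop codon (nt), with 1 row per gene. Thick grey bars are coding sequence and thin lines untranslated regions. Filled circles are replicate A and open squares replicate B, blue for shCTR and orange for shMettl14. Wwtr1, Tead2 and Tead3 have no points, those of Tead1 lie from 5544 to 6226 nt past the stop codon, and the Lats genes carry points across the coding sequence. The 2 Amotl1 summits outside its chosen transcript are not drawn.

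To determine whether the coactivators carried m6A peaks, Yap1 and Wwtr1 were examined first. Yap1 (ENSMUSG00000053110.13, chromosome 9, minus strand) had 1 region, at 7933947 to 7934784, which spanned the stop codon in its last exon, exon 9 of 2734 nt. The region held 3 and 2 summits in shCTR and 4 and 3 in shMettl14. The strongest lay 330 to 421 nt past the stop codon in all 4 lists, and weaker ones included some at -137 to -55 nt in the coding sequence. At the strongest summit Yap1 had 52 and 49 fragments in shCTR A and B and 48 and 31 in shMettl14 A and B. Both shMettl14 values lay below both shCTR values. Its percentiles were 89.3 and 89.8 in shCTR and 93.9 and 86.0 in shMettl14, so that the groups overlapped. The rank change, in normal scores, was 0.02 ± 0.49 (SE, limma, adjusted p = 0.999). The nearest DRACH word to the median summit was the GAACT printed above, 2 nt away.

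Wwtr1, which encodes TAZ, the paralog of YAP, had no summit. Its chosen transcript of 4533 nt held 87 DRACH words, of them 3 GGACT, against 81 and 3 in the 4171 nt of Yap1. A list holds only summits that passed the caller, and the level of Wwtr1 RNA was not measured here, so the blank does not tell an unmethylated transcript from a scarce one.

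The TEAD factors carry YAP and TAZ to DNA. Tead1 and Tead4 had peaks, and Tead2 and Tead3, with 52 and 46 DRACH words in transcripts of 3396 and 2448 nt, had none. Tead1 has a 3′ UTR of 8147 nt, and its peaks lay deep within it. The region at 112904465 to 112904924 on chromosome 7 had its strongest summit 6016 to 6062 nt past the stop codon in each list, and no summit of Tead1 lay closer to the stop codon than 5544 nt. Its pileups were 34 and 30 fragments in shCTR and 27 and 24 in shMettl14, again with no overlap between groups. Its percentiles were 70.0 and 44.9 in shCTR and 45.7 and 45.0 in shMettl14. Only shCTR A stood apart by rank, and the change was -0.34 ± 0.50 (SE, limma, adjusted p = 0.999). A weaker Tead1 region at 112904132 to 112904274 was called in shCTR A with 17 fragments and in shMettl14 B with 10, and in neither of the other lists.

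Tead4 had its region at the stop codon (chromosome 6, 128227934 to 128228509), with strongest summits from -32 to 111 nt. It was the thinnest member region, at 14 and 8 fragments in shCTR and 9 and 7 in shMettl14. Its percentiles were 81.2 and 11.9 in shCTR and 53.4 and 35.9 in shMettl14. The shCTR replicates enclosed both shMettl14 values. The change was -0.06 ± 0.58 (SE, limma, adjusted p = 0.999), and without shCTR A it was 0.96.

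The LATS kinases, which phosphorylate YAP and TAZ, held 9 of the 17 member regions. Lats1 (chromosome 10, plus strand) had 4 regions, all in coding sequence and none in its 3′ UTR of 3450 nt. Its leading region, in exon 5 at 7705416 to 7706027, had 29 and 27 fragments in shCTR and 28 and 22 in shMettl14. Its percentiles were 87.5 and 83.1 in shCTR and 89.3 and 89.6 in shMettl14, both shMettl14 values above both shCTR values, but the change of 0.17 ± 0.49 was smaller than its error (limma, adjusted p = 0.999).

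The other Lats1 regions ranked lower or varied more. In exon 4, at 7702811 to 7703077, the percentiles were 22.2 and 44.3 in shCTR and 31.8 and 9.12 in shMettl14. In exon 8, at 7712575 to 7712991 and -152 to -88 nt from the stop codon, they were 90.5 and 30.8 in shCTR and 64.4 and 61.8 in shMettl14. The changes were -0.41 ± 0.51 and -0.15 ± 0.56 (SE, limma, adjusted p = 0.999 for each), and that of exon 8 was 0.77 without shCTR A. The 2 shCTR replicates of that site held 25 and 11 fragments and enclosed both shMettl14 values of 13 and 16. The region at exon 6, at 7710341 to 7710536, was called in both shCTR lists with 15 and 12 fragments, in shMettl14 A with 17, and not in shMettl14 B. Its shCTR B summit lay in the neighbouring intron.

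Lats2 (chromosome 14, minus strand), a kinase gene that is itself a YAP target, had the most summits of any member, with 6 and 5 in shCTR and 12 and 5 in shMettl14. The highest ranked sites stood at the ends of the coding sequence. At the start codon, at 57733917 to 57734440 in exon 2, the strongest summit of the 4 lists fell between -13 and 1 nt from the first base of the start codon. The GGACT printed above has its A at -7 nt, and -5 nt from the median summit. It is not the nearest DRACH word, which is the TAACA that starts at the capital T of the GGACT in that window, at -1 nt from the median summit. The site had 66 and 58 fragments in shCTR and 55 and 48 in shMettl14, and percentiles of 95.8 and 95.5 against 93.6 and 93.5. Both values were lower in both shMettl14 lists, but the pileups scaled to the group totals gave a log2 ratio of 0.036. The mean percentile was 95.6 ± 0.235 in shCTR and 93.5 ± 0.0937 in shMettl14 (SD, n = 2), a difference larger than the spread within either pair. The change was -0.26 ± 0.49 in normal scores (SE, limma, adjusted p = 0.999), where the error comes from the spread over all regions.

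In the 3′ UTR of Lats2, at 57690781 to 57691691, the strongest summit lay 220 to 276 nt past the stop codon. It had 85 and 74 fragments in shCTR and 63 and 50 in shMettl14, and percentiles of 97.4 and 93.2 against 95.0 and 94.2. The pileups did not overlap between groups while the ranks did, and the change was -0.18 ± 0.50 (SE, limma, adjusted p = 0.999). A GGACT lies 244 nt past the stop codon, at -11 nt from the median summit. It is not the nearest DRACH word, which is an AAACC at 3 nt.

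Within the coding sequence of Lats2 the exon 4 region at 57699302 to 57699936 had 73 and 58 fragments in shCTR and 58 and 62 in shMettl14, with percentiles of 68.2, 71.1, 41.2 and 86.8 in the same order. The shMettl14 replicates enclosed both shCTR values. The exon 5 region at 57696975 to 57697632 had 44 and 40 fragments in shCTR and 34 and 29 in shMettl14, and percentiles of 50.7, 59.2, 49.0 and 63.2. The changes of -0.09 ± 0.55 and 0.02 ± 0.50 were below their errors (SE, limma, adjusted p = 0.999 for each). A further exon 4 region, at 57700230 to 57700507, was called in shCTR A, shCTR B and shMettl14 A with 18, 17 and 15 fragments, at percentiles of 0.408, 1.80 and 2.69. The start codon, exon 4 and exon 5 regions also lie in exons of Gm49361, a gene model on the same strand that overlaps Lats2, and their fragments cannot be assigned to 1 of the 2.

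The exon 5 regions of the LATS genes sit in paralogous sequence. Exon 5 is 583 nt long in both genes, and the exons aligned with no gap at 76.3% identity. Each holds a GGACT at position 338 of the exon, and the 25-nt windows around it, printed above, are identical at 23 bases. The longest run shared by the exons, 22 nt, holds this word. The median summit lay at position 350 in Lats1 and 299 in Lats2, so that the peaks were 51 nt apart after alignment. The shared GGACT lay at -12 nt from the Lats1 median summit, where it was the nearest DRACH word. It lay 39 nt from that of Lats2, where an AAACT at -8 nt was nearer. Exon 5 holds 1 GGACT in Lats1 and 2 in Lats2. A peak does not resolve the modified base, and 6 DRACH words lay within 50 nt of the Lats2 summit against 3 for Lats1. The Lats1 site ranked higher in its lists (83.1 to 89.6) than the Lats2 site (49.0 to 63.2) although it had fewer fragments, its recovered background being 0.533 to 1.2 fragments against 2.17 to 4.69 for Lats2.

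The angiomotin-like genes encode scaffolds that bind YAP and LATS. Amotl1 (chromosome 9, minus strand) had its region in coding exon 4, at 14592819 to 14593558, with strongest summits from -2082 to -1986 nt. The site had 65 and 57 fragments in shCTR and 48 and 39 in shMettl14, with no overlap. Its percentiles of 95.2 and 86.5 against 92.6 and 92.9 did overlap, and the change was 0.02 ± 0.50 (SE, limma, adjusted p = 0.999). A second region, at 14547601 to 14547746, was called in shCTR A with 29 fragments and in shMettl14 B with 21. It is not in the chosen transcript, which has no annotated 3′ UTR, and lies 120 and 139 nt past the stop codon of another coding transcript of Amotl1.

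Amotl2 (chromosome 9, plus strand), itself a YAP target, had 2 regions. In its 3′ UTR, at 102731743 to 102732885, summits recurred in all 4 lists at 167 to 214 nt, at 436 to 484 nt and at 1009 to 1074 nt past the stop codon, and the strongest was the most distal. That summit had 66 and 83 fragments in shCTR and 56 and 54 in shMettl14, with percentiles of 89.2, 95.6, 93.0 and 95.0. The rank change of 0.05 ± 0.50 was again far below its error (limma, adjusted p = 0.999).

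The coding region of Amotl2, in exon 3 at 102720135 to 102720566, had the most negative rank change of the members. It had 77 and 85 fragments in shCTR and 54 and 49 in shMettl14. Its percentiles were 64.7 and 77.0 in shCTR and 20.9 and 62.5 in shMettl14, both shMettl14 values lying below both shCTR values. When only the 4929 regions found in every list were ranked, the normal scores were -0.24 and 0.36 in shCTR and -1.50 and -0.09 in shMettl14, and they overlapped. The change was -0.86 ± 0.54 (SE, limma, unadjusted p = 0.127, adjusted p = 0.993). It rested on shMettl14 A, without which it was -0.15, while without shMettl14 B it was -1.53 (limma, unadjusted p = 0.0168, adjusted p = 0.621). The recovered background there was 7.28 and 6.37 fragments in shCTR, 9.02 in shMettl14 A and 4.34 in shMettl14 B, so that the list with the lowest rank also had the highest background. Exon 3 of Amotl2 aligned to exon 4 of Amotl1 over 769 bases at 66.6% identity, and the 2 median summits lay 276 nt apart after alignment, beside 51 nt for the LATS pair.

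**Figure D2:**
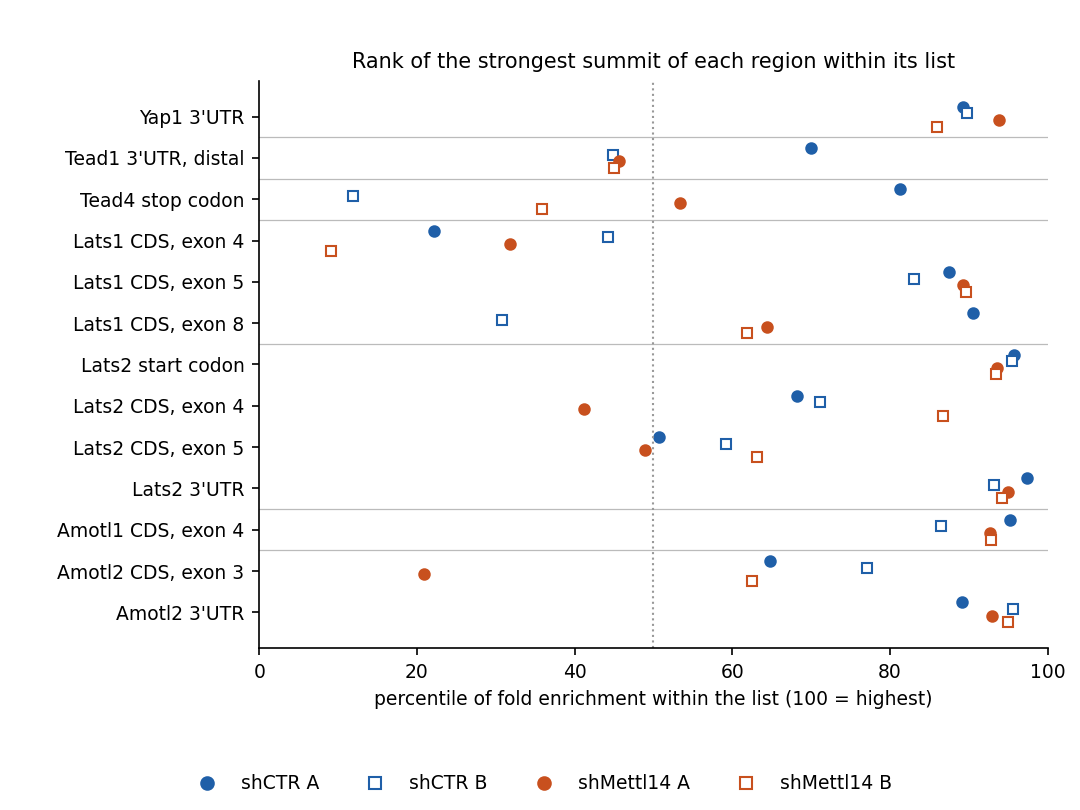
Percentile of fold enrichment within the list (x axis, 100 = highest, dotted line at 50) for the strongest summit of each of the 13 member regions found in all 4 lists, named by gene and part of the transcript. Filled circles are replicate A and open squares replicate B, blue for shCTR and orange for shMettl14. Both Lats2 end sites and the Amotl2 3′ UTR site lie at 89.2 or higher in every list, while Tead4 and exon 8 of Lats1 spread widely between the shCTR replicates.

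**Figure D3:**
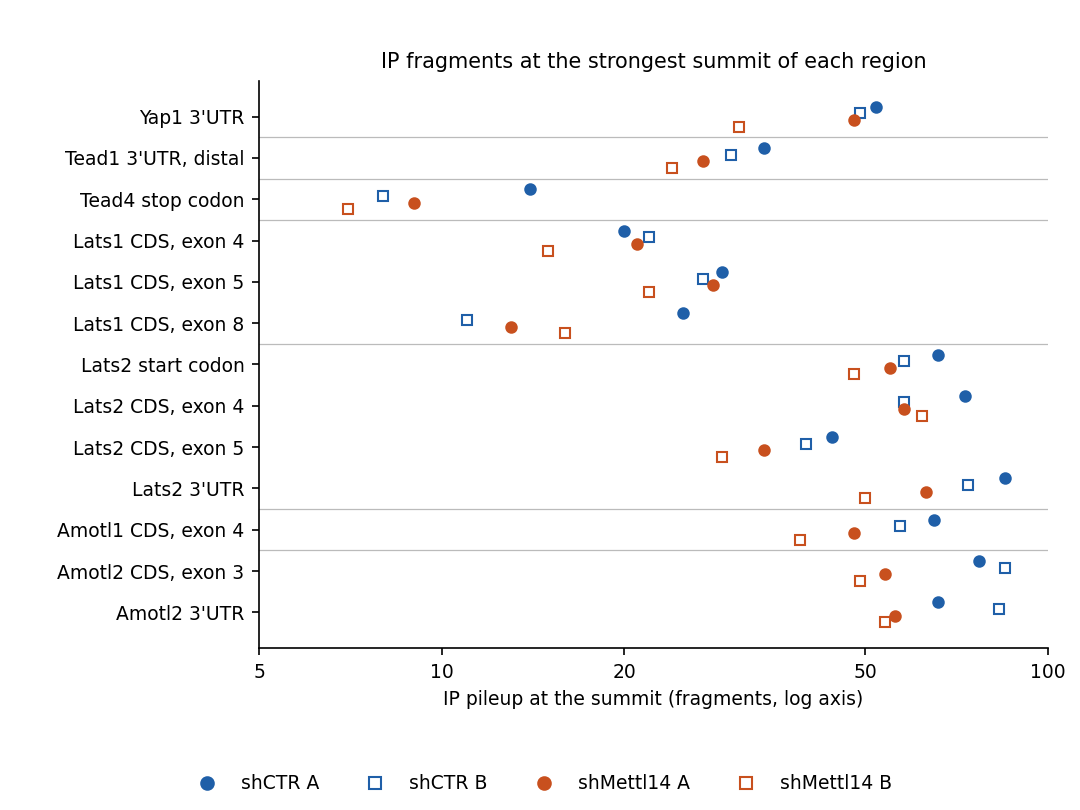
IP pileup in fragments (log axis) at the same strongest summits, with the same symbols. In 8 of 13 regions both shMettl14 values lie below both shCTR values.

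Over all members, the pileup at the strongest summit was lower in both shMettl14 lists than in both shCTR lists at 8 of 13 regions and higher in both at none. Over all 4929 regions found in 4 lists the same was true of 37% and 2.45%. Median pileups over the 4929 regions were 23 and 20 fragments in shCTR and 20 and 16 in shMettl14, and 52, 49, 48 and 31 over the 13 member regions. Raw pileups scale with the depth of the library, which these lists do not give.

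By rank, 0 of the 13 member regions passed an adjusted p of 0.05 (limma, Benjamini-Hochberg over 4929 regions), against 0% of all regions. At an unadjusted p of 0.05 the count was 0 of 13, against 4.93% of all regions (2.52% lower and 2.41% higher in shMettl14), and by Fisher's exact test on summed pileups, scaled to their totals over the 4929 regions, it was also 0 at the adjusted threshold and 0 unadjusted (all regions 3.21% unadjusted). Leaving out shMettl14 B made the unadjusted limma count 1 of 15 member regions, the Amotl2 coding region, beside 362 of all 5515 regions, and it stayed at 0 without each of the other 3 lists. The lowest Fisher p was 0.0555, for the Amotl2 coding region, with a scaled log2 ratio of -0.35. Of the 13, 8 were lower and 5 higher in shMettl14 (49.9% of all regions were lower), with changes from -0.86 to 0.17 and a median of -0.09, beside a median of 0.00212 over all regions. Ranks among the 4929 regions did not overlap between groups at 1 of 13 on the lower side, the Lats2 start codon, and at 1 of 13 on the higher side, Lats1 exon 5, where the shares over all regions were 15.8% and 17%. The sign of 9 of the 13 changes turned when 1 of the 4 lists was left out.

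**Figure D4:**
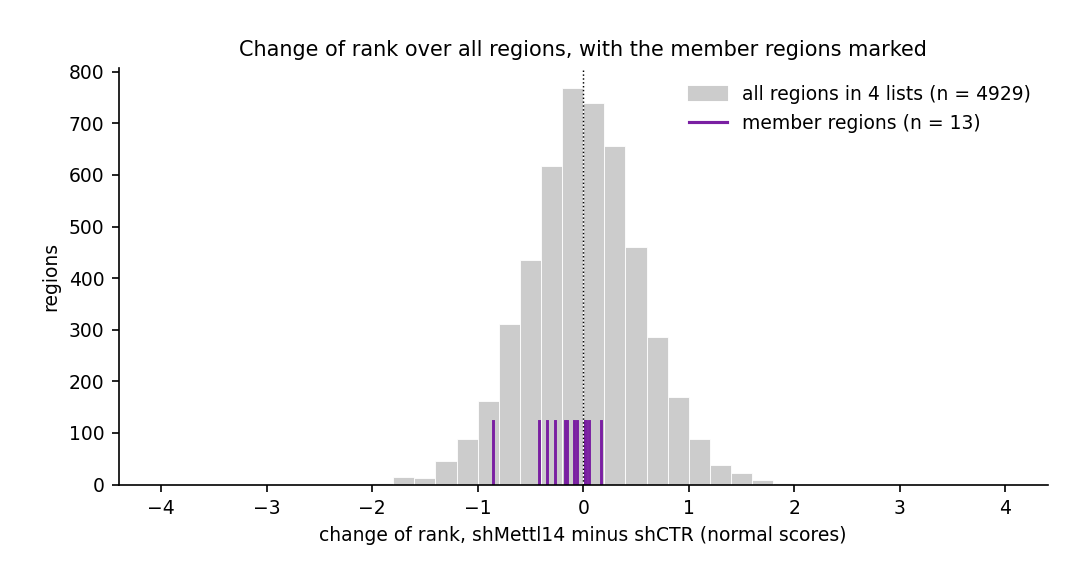
Number of regions (y axis) by change of rank, shMettl14 minus shCTR in normal scores (x axis), over all 4929 regions found in 4 lists. Purple lines mark the 13 member regions, which run from -0.86 (the Amotl2 coding region) to 0.17.

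When each gene was represented by its strongest summit, 0 of 7 members passed an adjusted p of 0.05 over 3690 genes (0% of all), and 0 of 7 an unadjusted p of 0.05 (5.09% of all). The Lats2 ranks were lower in both shMettl14 lists (16.1% of all genes), with percentiles of 97.4 and 95.5 against 95.0 and 94.2 and a change of -0.31 ± 0.46 (SE, limma, adjusted p = 0.998). The strongest summit was at the start codon in shCTR B and in the 3′ UTR in the other 3 lists, and at the 3′ UTR site alone the ranks overlapped. By mean percentile over the 4 lists the order was Lats2 (95.5), Amotl2 (93.2), Amotl1 (91.8), Yap1 (89.7), Lats1 (88.1), Tead1 (51.4) and Tead4 (45.6). The values over the 4 lists overlapped between neighbours in this order, except between Lats1 and Tead1. Over all member summits the mean percentile was 58.5 ± 3.39 in shCTR and 51.9 ± 11.8 in shMettl14 (SD, n = 2), a difference within the spread of the shMettl14 lists.

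No member region was present in both lists of 1 group and absent from both lists of the other. Over all 11361 regions, 1.71% were present in both shCTR lists only and 1.79% in both shMettl14 lists only. All 13 regions found in every list were also in the authors' replicate overlap of each shRNA. The exon 6 region of Lats1 was in the shCTR overlap only, and the other 3 regions in neither.

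To see where in the transcripts the member peaks lay, their summits were set beside all summits in coding transcripts. Within 200 nt of the stop codon lay 4 of 22 (18.2%) and 4 of 17 (23.5%) member summits in the shCTR lists and 7 of 33 (21.2%) and 4 of 22 (18.2%) in the shMettl14 lists. Over all genes the share was 25.4% to 27.1%. Coding sequence held 54.5%, 52.9%, 66.7% and 50% of member summits in the same order, against 65.7% to 67.5% over all genes.

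A DRACH word lay within 50 nt of 21 of 22, 17 of 17, 31 of 33 and 21 of 22 member summits, and of 94.9% to 96.2% of all summits. GGACT lay within 50 nt of 13.6%, 29.4%, 12.1% and 18.2% of member summits, against 19.7% to 23.6% of all. Of the 13 regions in every list, 4 had a GGACT within 50 nt of the median summit, 1 in Lats1 and 3 in Lats2. Wwtr1, Tead2 and Tead3, the members without peaks, held 19.2, 15.3 and 18.8 DRACH words per kb, and the members with peaks 17.2 to 20.9, beside a median of 20.4 over 21606 transcripts.

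The other genes of the pathway were drawn from a list of 39. Of these, 24 had a summit in any list, 19 in all 4 and 15 in none (25.5% of coding genes had one in any list). The blank genes included the core upstream genes Stk3 and Stk4 (the MST kinases), Mob1a and Mob1b (LATS cofactors) and Nf2 (merlin, which recruits LATS), while the MST adaptor Sav1 had 3 and 3 summits in shCTR and 4 and 4 in shMettl14. The list had 27 regions in all 4 peak lists, 12 lower and 15 higher in shMettl14, and 0 passed an adjusted p of 0.05 in either direction. By limma, 1 of 27 had an unadjusted p under 0.05, beside 4.93% of all regions, in the 5′ UTR of Crim1, a YAP target that encodes a membrane protein (chromosome 17, 78200593 to 78200923). Its percentiles were 4.37 and 18.9 in shCTR and 39.5 and 48.9 in shMettl14, a change of 1.15 ± 0.52 (SE, limma, unadjusted p = 0.0363, adjusted p = 0.970), while its pileups were 46 and 48 against 44 and 36. The count under an unadjusted limma p of 0.05 was 2 of 27 with the replicate letter as a block (292 of all 4929 regions). It was 2 of 27 with −log10 p ranked (253 of all) and 0 of 27 with centred log2 fold enrichment (242 of all). For Crim1 the unadjusted limma p was 0.0267 with the block, 0.207 with −log10 p ranked and 0.0533 with centred log2 fold enrichment. Without shCTR A, shCTR B, shMettl14 A or shMettl14 B it was 0.309, 0.0139, 0.0334 and 0.165, in fits that leave 1 group with a single list, whose spread is assumed to be that of the other group and the other regions. By Fisher's exact test on scaled pileups it was 0.761 for Crim1, and 1 of 27 was under 0.05 (3.21% of all regions), the region of Ccn2, with a log2 ratio of -0.47, p = 0.0175 and an adjusted p of 1.

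Of the 44 regions of this list, 2 were in both shCTR lists only, beside 1.71% of all regions. They lay in Limd1, which encodes a LATS-binding LIM protein (chromosome 9, 123520513 to 123520746, 13 and 11 fragments), and in Map4k4, which encodes a kinase that acts on LATS (chromosome 1, 40024990 to 40025171, 27 and 22 fragments). The highest mean percentiles of a strongest peak were those of the targets Dlc1 (92.0) and Arhgef17 (91.7) and of Taok2 (90.7), a kinase upstream of MST. The lowest were those of Ankrd1 (9.77), Ccn2 (22.7) and Frmd6 (33.7). The matricellular targets Ccn1 and Ccn2 combined high pileups with modest ranks. Ccn1 had 131 and 125 fragments in shCTR and 89 and 99 in shMettl14, at percentiles of 56.3, 65.8, 67.6 and 76.8. Ccn2 had 79 and 68 against 40 and 46, at percentiles of 23.5, 24.1, 8.90 and 34.4.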

How the data were processed

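The authors aligned reads to mm10 (GRCm38), kept uniquely mapped reads with SAMtools, called peaks of each IP against its own input with MACS2, and intersected replicates with BEDTools. The labels also name STAR, and the caller's version and options are not given in the sources used here. Each deposited list holds intervals and summits with the fold enrichment (a ratio of IP to local background) and −log10 values of p and q there. The 2 deposited overlap files hold intervals only, with no count or score. The methods name a planned sequencing depth per sample, but the files give no read totals, so the depth reached in each list is unknown.

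The IP pileup and background of each summit were solved from the fold enrichment and −log10 p, and a whole pileup within 0.001 of the deposited −log10 p was found for 100% of summits. Summits were placed in GENCODE M21 exons (55450 genes), with the complete transcript of the longest coding sequence chosen for each gene (21606 genes). Distances run from the first base of the stop codon, coordinates are 1-based, and motifs were searched on the transcript strand (18 DRACH words, overlapping words each counted). Intervals sharing at least 1 bp were merged, and normal scores of within-list ranks were compared with limma 3.58.1 (R 4.3.3, lmFit and eBayes, two-sided, no block) over regions or genes found in all 4 lists, after a check on simulated data. Benjamini-Hochberg adjusted p-values had a threshold of 0.05. Fisher's exact test, which the methods give for peaks, was run as an alternative on recovered pileups summed over replicates and set against their totals over the same regions. It treats fragments as units and compares these libraries. For the pileups it allows for counting error only, and not for the spread between replicates.

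The members, the list of 39 other pathway genes and the markers were chosen with earlier results of these data known. All 10 members are named. Of the other genes, those named have a region at an unadjusted p under 0.05 or in both lists of 1 group only, have 1 of the 3 highest or lowest mean percentiles of the strongest peak among genes with a peak in all 4 lists, or are Ccn1 or Ccn2, and Stk3, Stk4, Mob1a, Mob1b, Nf2 and Sav1 were named after their counts were seen. Python 3.11.15, pandas 2.3.3, numpy 2.4.6 and scipy 1.17.1 were used.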

Additional observations from a re-analysis of the deposited data

How the results depend on the processing

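No count of called member regions, member genes or wider pathway regions left 0 under any alternative, and no change of a single region came past an adjusted p of 0.05. Under these alternatives single changes kept their sign in 96 of 133 recomputations and turned in 37. The ratio of member summits was 1.03 with distinct intervals, and the stop codon difference (shMettl14 minus shCTR, percentage points), -1.16 at 200 nt, was 6.15 at 100 nt and 2.81 at 400 nt. Leaving out each list gave 0 to 2 member regions in every remaining list of 1 group and none of the other. Without shMettl14 A there were 2 of 17, beside 1460 of all 10099 regions. The 2 were the exon 6 region of Lats1 and the lower ranked exon 4 region of Lats2. Without shMettl14 B there was 1 of 18, beside 1925 of 10934. Without shCTR A or shCTR B there were 0 of 17, beside 1326 of 10423 and 1641 of 11034. Mean percentile differences ran from -14.9 to 1.71, the last without shMettl14 A. The causes were not tested.

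With −log10 p ranked, signs turned for Yap1 (-0.064), Tead4 (0.15), Lats2 exon 4 (0.040) and exon 5 (-0.16), Amotl1 (-0.17) and the Amotl2 3′ UTR (-0.067). With centred log2 fold enrichment only Yap1 turned (-0.023). By Fisher's log2 ratio of pileups, scaled to the group totals over the 4929 regions and so not the ratio of the raw pileups, Yap1 (-0.051), Lats1 exon 4 (0.081), the Lats2 start codon (0.036), Lats2 exon 4 (0.18) and exon 5 (-0.11), Amotl1 (-0.18) and the Amotl2 3′ UTR (-0.13) turned. With limma on log2 pileups centred on the median of each list, an alternative chosen after seeing the data, Yap1 (-0.13), Lats1 exon 4 (0.021) and exon 8 (0.060), Lats2 exon 4 (0.14) and exon 5 (-0.16), Amotl1 (-0.23) and the Amotl2 3′ UTR (-0.17) turned. The strongest Lats2 peak turned to 0.064 with pileups ranked.

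With 1 list left out, changes ran from -0.13 to 0.17 for Yap1, -1.04 to 0.96 for Tead4, -0.82 to 0.0055 for Lats1 exon 4, -1.05 to 0.77 for Lats1 exon 8, -0.91 to 0.75 for Lats2 exon 4, -0.30 to 0.35 for Lats2 exon 5, -0.37 to 0.023 for the Lats2 3′ UTR, -0.22 to 0.27 for Amotl1 and -0.27 to 0.37 for the Amotl2 3′ UTR. They kept their sign for Tead1 (-0.60 to -0.070), Lats1 exon 5 (0.038 to 0.28) and the Lats2 start codon (-0.35 to -0.17). The sign also held for the Amotl2 coding region (-1.53 to -0.15) and Crim1 (0.68 to 1.63). Each such fit leaves 1 group with a single list, which is assumed to vary like the others.

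Same-letter samples deviated together only weakly (r = 0.0795 over 4929 regions, 2 pairs), so the letters were not taken as pairs. With the replicate letter as a block, 0 member regions, 0 member genes and 0 wider pathway regions were called, and the lowest adjusted p of a member region was 0.873. Without shMettl14 A, 3 of all regions were called, none of them in a member.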
